A study of Mus musculus with 24 samples.

Results

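The first minutes of bisulfite treatment were compared between native mouse mitochondrial DNA (mtDNA) and a synthetic copy of it that carries no 5-methylcytosine (5mC). The 10 libraries used here, of 24 in the series, were chosen by their labels. At each duration, 5 and 15 min, they comprise 4 native preparations and 1 synthetic preparation. ESC 1 and ESC 2 are independent preparations from E14, a single established line of mouse embryonic stem cells, which the methods describe as wild type and grown on feeder cells in 2i-LIF medium. Brain 1 and liver 1 were each made from tissue of C57BL/6J mice, and the number of animals behind a preparation, their age and their sex are not given in the sources used here. The methods also name purchased livers of wild-type ICR mice, without assigning them to a preparation. Native DNA came from highly purified, nuclease-treated mitochondria as part of mitochondrial nucleic acid that also holds mitochondrial RNA, and was linearised with BglII, whose only site in the reference starts at nt 15335 in TrnT, the gene of tRNA-Thr. The synthetic mtDNA was a gel-purified PCR product with nearly the same ends, labelled C57BL/6J. Native origin, accompanying RNA and possible 5mC therefore cannot be told apart in these comparisons.

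Bisulfite converts unmethylated cytosines of single-stranded DNA to uracil, whereas 5mC reacts very slowly, so that a cytosine still read as C was either methylated or not yet converted. Comparing native with 5mC-free mtDNA early in the treatment asks whether native origin changes how far the reaction has gone. The strands of mtDNA differ in base composition: the H strand is rich in guanine and the L strand, which is the strand of the reference sequence, is rich in cytosine. The circle encodes subunits of the respiratory chain, ribosomal RNAs and tRNAs, and its control region holds the promoters and the start of H-strand synthesis. In the cell a short nascent H strand, the 7S DNA, is often paired to the L strand there.

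Values are unconversion rates, the percent of reads over a cytosine in which it was unconverted. Rates were compared at the cytosines with coverage of at least 10 in all 5 libraries of a duration. At 5 min these were 1915 of 1939 listed H-strand and 3248 of 3890 listed L-strand cytosines. At 15 min they were 1870 and 2330. Cytosine calls per library numbered 844303 to 1722313. Median coverage of the compared H-strand sites was 225 to 432.5 reads, and that of the L-strand sites was 46 to 131 reads. At this depth, a single H-strand site at the median of the synthetic 5 min library had a 95% Wilson interval of 23.6 to 34.5%, and a single L-strand site at its median of 68.2 to 86.1%. These intervals cover counting error only. On the L strand, 38.5 to 43.2% of the sites of a 5 min library had rates of 90% or more, against 0 to 0.209% on the H strand. The study removed almost fully unconverted L-strand reads read by read, which cannot be repeated on per-cytosine values, so the L-strand rates here include them. No pair of the 10 libraries had identical coverage. Of the 5 libraries at 15 min, ESC 1 stood apart with higher rates on both strands, and results at 15 min are given with and without it, except Fisher's test, which was run with it only.

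At 5 min the H strand of native mtDNA was less converted than that of synthetic mtDNA. The mean unconversion rate over the 1915 sites was 29.5% for synthetic mtDNA, whereas ESC 1 had 32.2%, ESC 2 33.3%, brain 1 31.6% and liver 1 31.8%. All 4 native libraries lay above the synthetic library, and the native mean of 32.2% ± 0.749 (SD, n = 4) was 2.75 percentage points, or 1.09 times, higher. The gap is larger than the spread among native libraries, but with a single synthetic library the exact permutation test, two-sided, gave p = 0.2, the smallest value it allows. At 862 single sites (45% of the sites) all 4 native libraries exceeded the synthetic one, and at 157 sites (8.2%) all 4 were below it. The difference was spread over sites of every level. With sites split into 4 bins of equal size by their mean rate over the 5 libraries, it was 1.95 points in the lowest bin and 2.90, 3.10 and 3.07 points in the next 3, with 4 of 4 native libraries above synthetic each time.

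The L strand showed no such shift at 5 min. Its mean rate for synthetic mtDNA, 68.1%, lay inside the native range, with ESC 1 at 66.9%, ESC 2 at 68.6%, brain 1 at 66.4% and liver 1 at 67.2%. The native mean of 67.3% ± 0.917 (SD, n = 4) differed from it by -0.822 points, with p = 0.6 in the exact permutation test. With reads pooled over sites, synthetic mtDNA was at 68.8%, above the 67.2, 68.6, 64.5 and 67.4% of ESC 1, ESC 2, brain 1 and liver 1. All native libraries were above synthetic at 622 L-strand sites (19.2%) and below it at 700 sites (21.6%). Among the 812 sites of the lowest bin by mean rate, however, the native mean was 28.5% ± 0.377 against 27.2%, with 4 of 4 native libraries above. In the next 2 bins native minus synthetic was -2.52 and -1.96 points. The same direction as on the H strand was seen at the 1127 L-strand sites that had fallen under 10% in all 5 libraries by 40 min: 37.7, 39.1, 36.7 and 36.9% in ESC 1, ESC 2, brain 1 and liver 1, with synthetic mtDNA at 36.6%. There the native mean was 0.991 points above synthetic in 4 of 4 libraries, brain 1 and liver 1 lay close to the synthetic value, and the exact permutation p was 0.4.

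**Figure D1:**
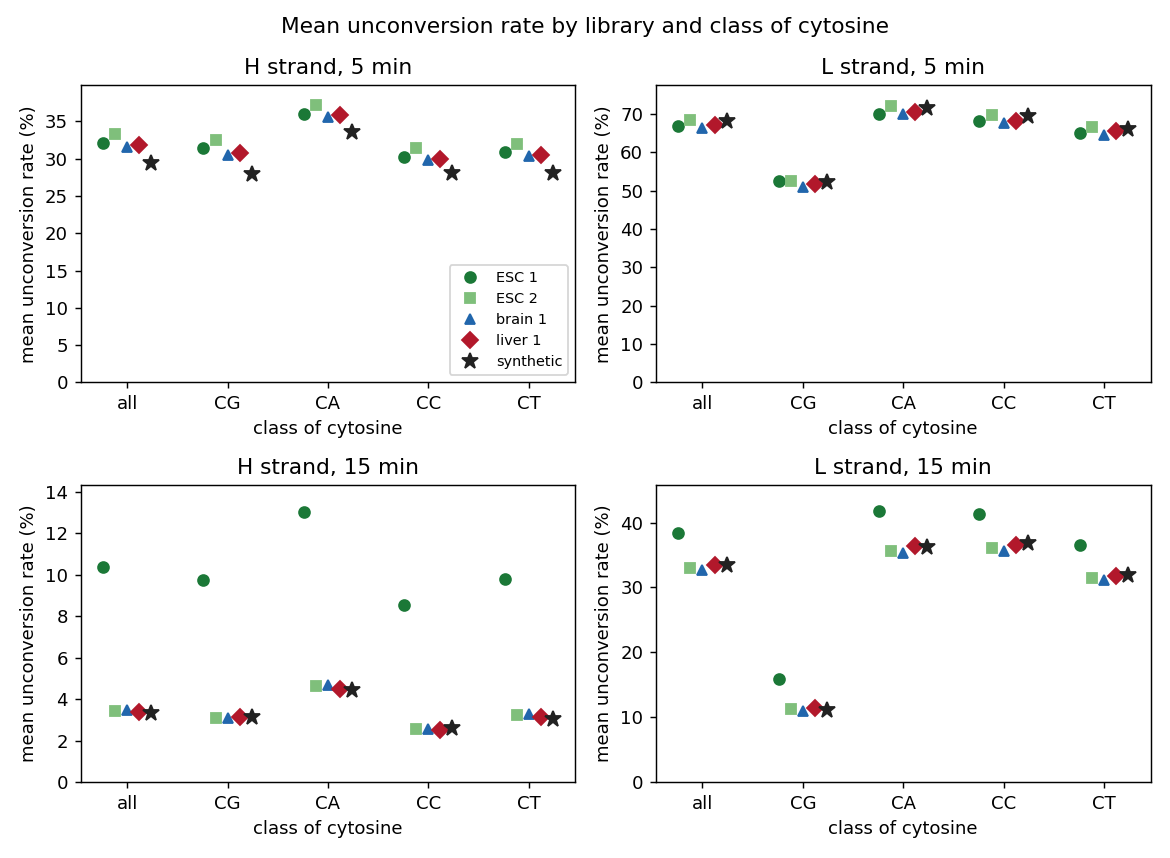
Mean unconversion rate (%, vertical axis from 0) of each library for all cytosines and for those followed by G, A, C or T, by strand (columns) and duration (rows); each symbol is 1 library. The black star of synthetic mtDNA lies under the 4 native libraries in every H-strand class at 5 min, and ESC 1 alone stands high at 15 min.

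By gene, the H-strand shift at 5 min covered nearly the whole molecule. Of 35 regions with at least 5 compared sites on the H strand, 31 had a native mean above synthetic, and in 27 this held for all 4 native libraries. Across both strands, limma on the log odds of the region means called 12 of 63 region and strand combinations (19%) at an adjusted p under 0.05. All 12 were on the H strand, 11 higher and 1 lower in native mtDNA. The fit gave every H-strand region the same standard error, 0.068 on the natural log odds scale, which rests on pooling the variance over regions that share the same 5 libraries. With each region keeping its own variance, an alternative added after the data were seen, 0 regions were called and 21 had an unadjusted p under 0.05. The number called was 5 without ESC 1, 1 without ESC 2 and 21 without brain 1. Relative to the strand median 1 was called, TrnP, the gene of tRNA-Pro, which was lower in native mtDNA (adjusted p = 0.036).

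Among the protein genes, 13 of 13 had a native mean above synthetic on the H strand, with all 4 native libraries above in 12, and 5 were called higher. None of these 5 was called without ESC 1, without ESC 2 or relative to the strand median. The calls therefore do not set these genes apart from the strand-wide shift. Of the 7 complex I genes, whose products form the NADH dehydrogenase that feeds electrons into the chain, ND2 and ND6 passed the test. ND6 was at 29.8, 31.1, 28.5 and 29.3% in ESC 1, ESC 2, brain 1 and liver 1, against 25.6% for synthetic mtDNA, a difference of 4.08 points (adjusted p = 0.030). ND2 was at 31.5% ± 0.816 (SD, n = 4) against 27.5% (adjusted p = 0.033). ND1, ND4, ND4L and ND5 were 3.23 to 3.53 points above synthetic and did not pass. ND3 was the exception, at 26.5, 29.2, 27.5 and 28.4% against 27.5%, with ESC 1 below the synthetic library. CYTB, the cytochrome b of complex III, rose from 27.7% in synthetic to 31.7% ± 1.10 in native mtDNA (adjusted p = 0.033). Of the complex IV genes, which encode core subunits of cytochrome c oxidase, COX2 rose from 30.1% in synthetic to 34.2% ± 0.973 in native mtDNA (adjusted p = 0.037), whereas COX1 and COX3 were 2.17 and 2.59 points above and did not pass. Of the ATP synthase genes, ATP6 rose by 3.95 points (adjusted p = 0.033) and ATP8, with 12 sites, was 2.72 points above. The rRNA genes mt-Rnr1 and mt-Rnr2 were closer to synthetic, by 1.83 and 1.84 points, with all 4 native libraries above, and neither passed (adjusted p = 0.37 and 0.35). In mt-Rnr2, part of the gene was not analysed here.

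**Figure D2:**
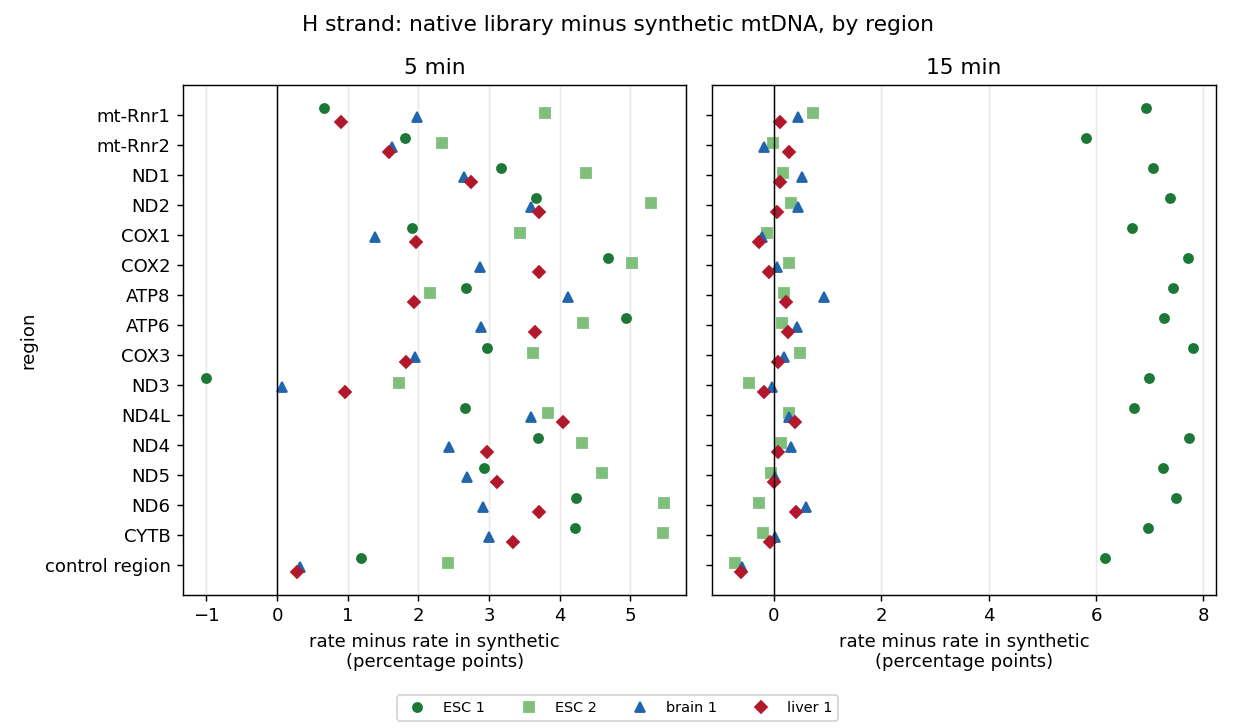
Unconversion rate of each native library minus that of synthetic mtDNA (percentage points) on the H strand, by region in order along mtDNA without the tRNA genes, at 5 min (left) and 15 min (right); each symbol is 1 native library. At 5 min the symbols lie right of 0 in all regions shown except ND3, where ESC 1 lies left; at 15 min ESC 1 lies far right and the other 3 libraries lie around 0.

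The largest H-strand differences were in tRNA genes, which have few sites each. Of 19 tRNA genes tested on the H strand, 15 had a native mean above synthetic, 6 rose (TrnV, TrnW, TrnA, TrnK, TrnH and TrnE) and 1 fell (TrnF). The other tRNA genes were between 1.41 points below and 3.52 points above. The H-strand sequences of the 3 genes with the largest shifts are shown because the change could be followed cytosine by cytosine in them. They are read 5′ to 3′ from the GRCm38.p6 (mm10) reference, against the numbering of the reference, and capitals mark the cytosines compared at 5 min.
TrnA (chrM:5018-5086, H strand): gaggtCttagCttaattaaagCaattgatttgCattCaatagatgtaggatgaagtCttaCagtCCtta
TrnH (chrM:11546-11612, H strand): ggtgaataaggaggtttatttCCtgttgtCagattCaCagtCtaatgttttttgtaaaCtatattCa
TrnF (chrM:1-68, H strand): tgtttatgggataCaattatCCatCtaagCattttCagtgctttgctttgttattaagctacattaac
TrnA, the gene of tRNA-Ala, was at 37.7, 39.3, 36.6 and 39.7% in ESC 1, ESC 2, brain 1 and liver 1, against 29.2% for synthetic mtDNA. The groups did not overlap and the difference was 9.11 points over 9 sites (adjusted p = 1.62e-06). TrnA was not called without ESC 2. Native means exceeded the synthetic rate at each of the 9 capitals, by 3.32 to 16.4 points. Over all compared H-strand sites at 5 min they did so at 1445 of 1915 (75.5%). TrnH, the gene of tRNA-His, was at 37.1, 36.8, 36.3 and 36.0% against 29.8%, a difference of 6.80 points over 8 sites (adjusted p = 0.00049). Here too each of the 8 sites had a higher native mean, by 0.300 to 10.8 points, and the gene was called with any 1 of the 4 native libraries left out. TrnF, the gene of tRNA-Phe at the start of the reference, fell, from 72.7% in synthetic to 67.1% ± 3.32 in native mtDNA over 6 sites (adjusted p = 0.0038). Its 6 sites did not move together. At the 5 sites from nt 33 to nt 48 the native minus synthetic difference was -19.4 to -4.17 points, and the site at nt 55 was 26.0 points higher, at 41.4% ± 11.2 against 15.4%. Coverage in TrnF at 5 min was 19 to 27 reads in the synthetic library and 25 to 128 in the native ones, and neighbouring sites share reads. TrnF was not called without ESC 2. At 15 min it had fewer compared H-strand sites than the region test required. Native minus synthetic was then 19.5, 19.6, 14.3 and 1.95 points at nt 44, 47, 48 and 55, so the direction at nt 44 to nt 48 turned.

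The control region (chrM:15423-16299) was at 29.7, 30.9, 28.8 and 28.8% in the native libraries and 28.5% in synthetic mtDNA over 102 H-strand sites, a difference of 1.05 points (adjusted p = 0.59). Among the non-tRNA regions only ND3 had a smaller difference on this strand. Relative to the strand median it was lower in native mtDNA, without passing (adjusted p = 0.12). Its annotated blocks were then described without a test, a division made after the values of the whole region were seen. In the 476 bases between ETAS2, a sequence associated with the termination of nascent H strands, and CSB1, a conserved block near their start, the native mean was 28.2% ± 1.02 against 28.9% in synthetic mtDNA, with 1 of 4 native libraries above. From CSB1 to CSB3 it was 37.3% ± 1.16 against 32.4% over 5 sites. In the 168 bases after CSB3 it was 34.2% ± 2.42 against 26.5% over 14 sites, with 35.2, 35.0, 36.0 and 30.6% in the 4 native libraries. The difference in this last block was 7.64 points. The block was thinly covered, at 0.232 to 0.259 of the mean H-strand coverage in native libraries and 0.206 in synthetic mtDNA. At 15 min without ESC 1 this block was at 4.41% ± 0.710 (SD, n = 3) against 4.33% in synthetic mtDNA. The block that holds ETAS2 was 2.56 points above synthetic at 5 min, in 3 of 4 libraries. On the L strand, CSB1 to CSB3 differed by -13.5 points at 5 min, with 0 of 4 above. The H-strand sequence after CSB3 is shown because it differs most among the H-strand blocks at 5 min. Capitals mark the cytosines compared at 5 min.
Control region after CSB3 (chrM:16132-16299, H strand): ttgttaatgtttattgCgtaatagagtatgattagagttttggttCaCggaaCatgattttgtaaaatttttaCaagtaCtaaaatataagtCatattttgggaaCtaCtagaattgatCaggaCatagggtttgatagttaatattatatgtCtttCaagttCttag
Coverage differed along the same blocks. Relative to the mean H-strand coverage of each library, the block between ETAS2 and CSB1 was covered 1.41 to 1.81 times in the native libraries, most deeply in ESC 1, and 1.11 times in synthetic mtDNA. From CSB1 to CSB3 the order turned, with 0.515 to 0.710 in native libraries and 1.12 in synthetic mtDNA. Whether molecules that end within the control region, such as 7S DNA, contribute to these values was not tested.

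**Figure D3:**
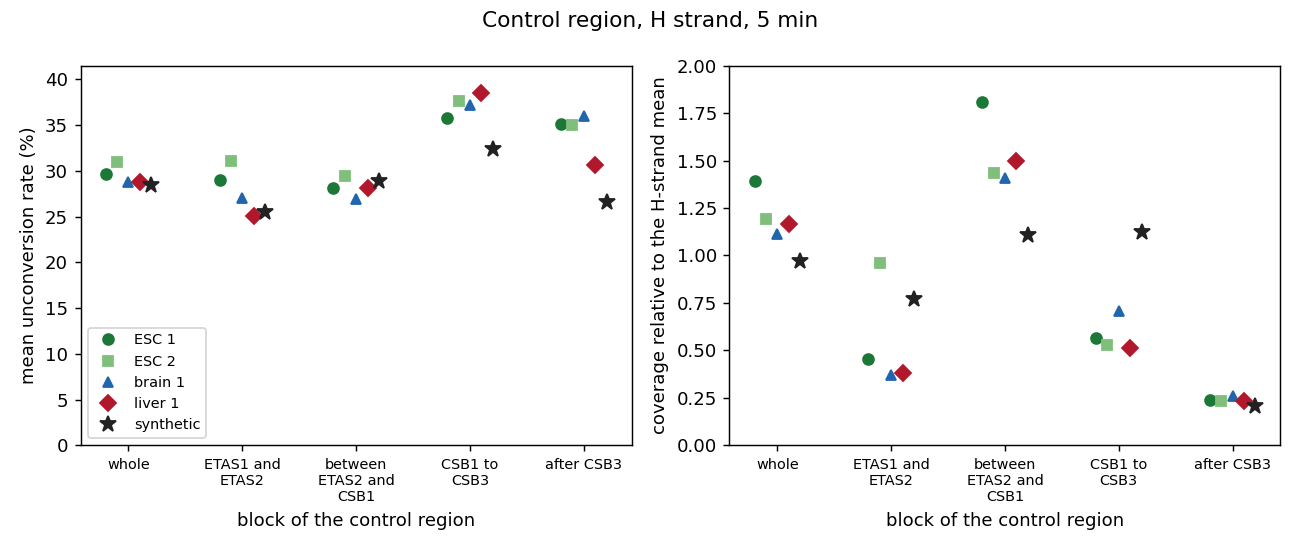
Control region on the H strand at 5 min, whole and by annotated block: mean unconversion rate in percent (left) and coverage relative to the mean H-strand coverage of the library (right); each symbol is 1 library. Between ETAS2 and CSB1 the synthetic library is not the lowest in rate but is the lowest in coverage, and after CSB3 it is the lowest in rate.

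No single site passed the test at 5 min: limma called 0 of 5163 sites (0%), with 252 H-strand and 252 L-strand sites at an unadjusted p under 0.05. Relative to the strand median it also called 0 of 5163 (0%), with 183 and 251 sites at an unadjusted p under 0.05. Fisher's exact test on the summed native reads, which leaves out the variation between preparations, called 108 H-strand sites, 104 of them higher in native mtDNA, and 96 L-strand sites, 31 of them higher. These counts by strand are of 1915 H-strand and 3248 L-strand sites. Nearest to the threshold among single sites was H13499, in a stretch of ND5 named here after its values were seen. The sequence of this stretch on the H strand holds 3 compared cytosines in capitals, at nt 13485, 13486 and 13499.
ND5 stretch (chrM:13472-13512, H strand): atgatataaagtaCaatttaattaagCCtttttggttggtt
H13499 was unconverted in 39.1, 36.8, 37.3 and 40.6% of reads in ESC 1, ESC 2, brain 1 and liver 1, but in 11.1% of 81 synthetic reads, a difference of 27.4 points (adjusted p = 0.056). H13486 was at 37.6% ± 2.04 (SD, n = 4) against 13.5%, and H13485 at 33.5% ± 2.58 against 11.8% (adjusted p = 0.088 for both). At each of these ND5 sites the synthetic library was below its strand mean of 29.5%, whereas the native libraries lay between 30.6 and 40.6%. H39 in TrnF had the same adjusted p of 0.088 but went the other way. It was at 82.35% ± 3.75 in native mtDNA against 100% of 20 synthetic reads. With a coverage minimum of 20, H13499 was called (adjusted p = 0.035), and with 30 both H13499 and H13486 were (adjusted p = 0.021 and 0.041). The ND5 sites share reads and are not independent. At 15 min synthetic mtDNA was again the lowest, with H13499 at 15.4, 8.5, 4.7 and 3.0% in the native libraries and 2.1% in synthetic mtDNA. The order among the native libraries changed. Liver 1 lay close to synthetic mtDNA, at 1.4% against 1.3% at H13485.

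On the L strand at 5 min the genes went in different directions, and 0 of 28 regions were called. All 4 native libraries were above synthetic in 7 regions and all were below in 9. In mt-Rnr2 the rate was 42.2, 41.3, 40.9 and 40.3% in ESC 1, ESC 2, brain 1 and liver 1 against 37.4% in synthetic mtDNA, a difference of 3.72 points (adjusted p = 0.18). COX1 and mt-Rnr1 were also above synthetic in 4 of 4 libraries, by 2.07 and 1.47 points. ND4L was below it, at 59.0, 57.7, 63.0 and 60.7% against 68.1%, a difference of -8.01 points (adjusted p = 0.079). COX2 was at 60.1% ± 1.66 against 65.7% (adjusted p = 0.12) and ATP6 at 89.9% ± 0.801 against 93.1% (adjusted p = 0.063), again with 4 of 4 below. ND1, ND6, COX3 and ATP8 were lower in native mtDNA in all 4 libraries as well, with differences of -3.32 to -0.251 points. Among the tRNA genes TrnV, TrnG, TrnD and TrnY lay above synthetic in 4 of 4 libraries, by 3.33 to 6.87 points, and TrnA below it, at 42.2% ± 5.36 against 54.4% over 7 sites. The protein genes above synthetic by their native mean were 2 of 13, COX1 and CYTB. On the H strand 13 of 13 were above, so that COX2, ATP6 and ND4L lay above synthetic on the H strand and below it on the L strand in the same libraries.

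**Figure D4:**
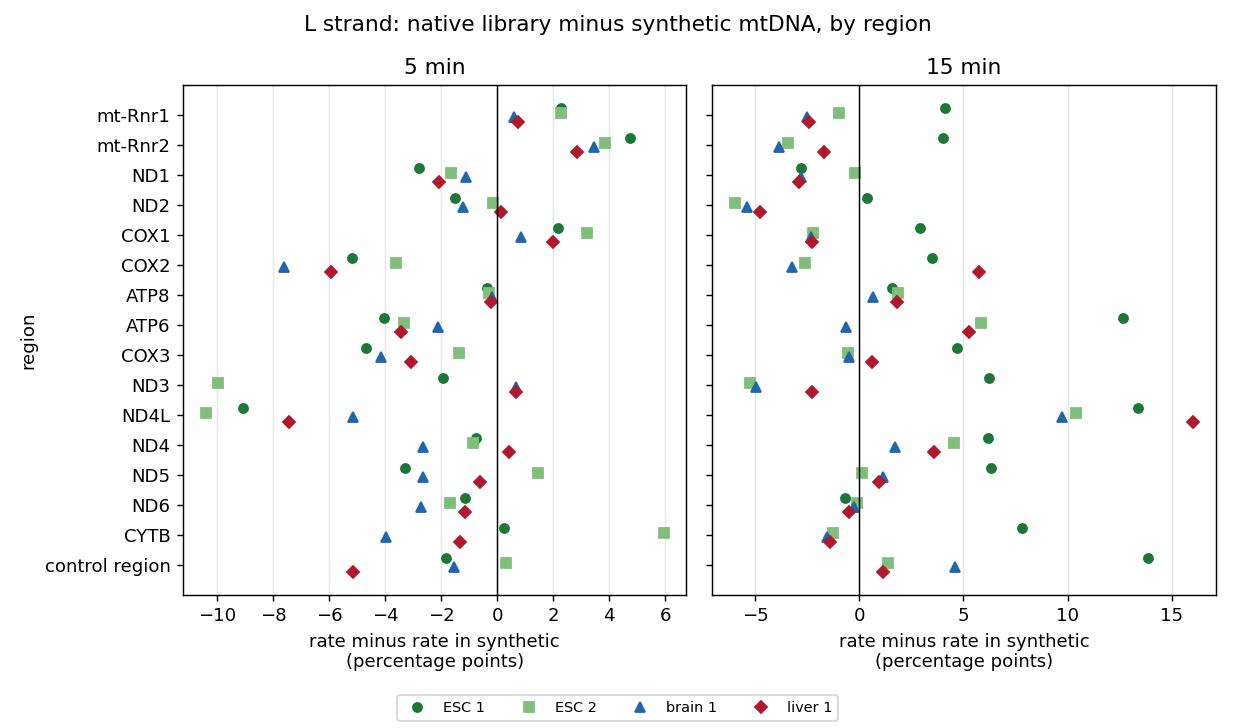
Unconversion rate of each native library minus that of synthetic mtDNA (percentage points) on the L strand, by region in order along mtDNA without the tRNA genes, at 5 min (left) and 15 min (right); each symbol is 1 native library. The rRNA genes and COX1 lie right of 0 at 5 min and COX2, ATP6, COX3, ND4L and ND6 left of it; at 15 min ND4L lies right of 0 in all 4 libraries.

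The shift at 5 min was found at CpG and non-CpG sites alike. On the H strand the 274 CG sites were at 31.4, 32.5, 30.5 and 30.8% in ESC 1, ESC 2, brain 1 and liver 1, against 27.9% for synthetic mtDNA, a difference of 3.40 points. The 1641 CH sites, those followed by A, C or T, were at 32.4% ± 0.729 against 29.7%, a difference of 2.65 points. CG sites were less unconverted than CH sites in every library, by 0.907 to 1.25 points in native and by 1.84 points in synthetic mtDNA. The CG minus CH difference was thus 0.751 points higher in native mtDNA, in 4 of 4 libraries, with the smallest p the exact permutation test allows, 0.2. With reads pooled over sites it was 0.129 points. CA sites had the highest H-strand rate of the classes in every library, 36.1% ± 0.696 in native and 33.6% in synthetic mtDNA. The native excess was 2.53 points at CA, 2.32 at CC and 2.88 at CT sites. By both neighbours of the cytosine, the native mean was above synthetic in 16 of 16 contexts, and in 15 of them in all 4 libraries. The largest differences were at GCG (4.23 points, 71 sites) and TCG (3.98 points, 84 sites), and the smallest at ACC (1.01 points, 89 sites) and GCA (2.12 points, 104 sites). These context differences are descriptions without a test of their own.

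On the L strand, CG sites had far lower rates than CH sites in each library at 5 min. They were at 52.0% ± 0.737 against 68.3% ± 0.952 in native and 52.4% against 69.2% in synthetic mtDNA. These rates include the almost fully unconverted L-strand reads. As a possible source of such reads the paper names H-strand fragments without cytosine, which would hold no CG site. The part of these reads in the gap between CG and CH sites was not tested. The CG minus CH difference was -15.2, -17.2, -16.5 and -16.4 points in ESC 1, ESC 2, brain 1 and liver 1, and the synthetic value of -16.8 points was inside the native range (exact permutation p = 0.6). The difference of 0.445 points between native and synthetic became 3.64 points with reads pooled over sites (exact permutation p = 0.2, the smallest allowed). The native minus synthetic difference was positive in 4 of 16 L-strand contexts, and in none of them in all 4 libraries. It was lowest at GCT (-1.74 points) and ACT (-1.69 points) and highest at GCG (1.55 points, 12 sites) and CCT (0.233 points).

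At 15 min the H-strand difference was small once ESC 1 was set aside. Mean rates over 1870 sites were 3.34% for synthetic mtDNA, 3.44% for ESC 2, 3.48% for brain 1 and 3.38% for liver 1, whereas ESC 1 was at 10.4%. With ESC 1 the native mean was 5.17% ± 3.48 (SD, n = 4), 1.83 points above synthetic (exact permutation p = 0.4). Without it the mean was 3.43% ± 0.0494 (SD, n = 3), 0.0869 points above synthetic, with 3 of 3 libraries above and p = 0.5 in the exact permutation test, whose smallest value is then 0.25. All native libraries exceeded synthetic at 410 H-strand sites (21.9%) and were below it at 15 sites (0.802%). Without ESC 1 these counts became 410 (21.9%) and 460 (24.6%). ESC 1 was the highest of the 5 libraries at 1783 of 1870 H-strand sites (95.3%) at 15 min, and at 23.4% of the H-strand sites at 5 min. Its excess over the other native libraries had a median of 6.80 points and ran from 3.27 to 10.8 points between the 10th and 90th percentiles. On the L strand it was highest at 51.1% of the sites.

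The L strand at 15 min was at 33.5% for synthetic mtDNA, with ESC 1 at 38.4%, ESC 2 at 33.0%, brain 1 at 32.6% and liver 1 at 33.4%. The native mean differed from synthetic by 0.83 points with ESC 1 (exact permutation p = 1.0) and by -0.515 points without it, at 33.0% ± 0.386 (SD, n = 3), with 0 of 3 libraries above (exact permutation p = 0.5). With reads pooled over sites, synthetic mtDNA was at 42.1%, above the 37.7, 33.4, 36.0 and 36.9% of ESC 1, ESC 2, brain 1 and liver 1. All native libraries were above synthetic at 399 L-strand sites (17.1%) and below at 275 (11.8%). Without ESC 1, they were above at 428 (18.4%) and below at 612 (26.3%). At the 1184 sites that fell under 10% by 40 min, ESC 2, brain 1 and liver 1 were at 2.37, 2.42 and 2.93%, all below the 3.28% of synthetic mtDNA, and ESC 1 was at 8.80%. The difference of -0.711 points without ESC 1 was at the smallest p the exact permutation test allows, 0.25. Over the 1106 such sites covered at both durations, ESC 2, brain 1 and liver 1 were 1.05 points above synthetic at 5 min, 3 of 3 above, and differed by -0.769 points at 15 min, 0 of 3 above (exact permutation p = 0.5 and 0.25).

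The H-strand mean was 8.81 times lower at 15 min than at 5 min for synthetic mtDNA, 9.68 times for ESC 2, 9.10 times for brain 1 and 9.42 times for liver 1, but 3.09 times for ESC 1. Without ESC 1 the log2 ratio was -3.23 ± 0.0452 (SD, n = 3) for native and -3.14 for synthetic mtDNA, so native libraries started higher and had the larger fold decrease in 3 of 3 cases (exact permutation p = 0.25, the smallest allowed). With ESC 1 the native mean ratio was -2.83 ± 0.802, and the exact permutation p was 1.0. The L-strand fold decrease was 2.01 to 2.08 for ESC 2, brain 1 and liver 1, 2.03 for synthetic mtDNA and 1.74 for ESC 1, but here the 5 min mean covers 3248 sites and the 15 min mean 2330. Over the 2214 L-strand sites covered at both durations it was 1.74 to 1.81, 1.74 and 1.52. Over the 1867 such H-strand sites it was 9.60 for ESC 2, 9.003 for brain 1, 9.32 for liver 1, 8.70 for synthetic mtDNA and 3.07 for ESC 1.

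No region passed the test at 15 min. With ESC 1, limma called 0 of 60 (0%), with 1 at an unadjusted p under 0.05. This was TrnH on the L strand, at 14.5, 15.2, 8.89 and 10.1% in ESC 1, ESC 2, brain 1 and liver 1, against 4.12% for synthetic mtDNA over 13 sites. Without ESC 1, 0 were called and 8 had an unadjusted p under 0.05. With ESC 1 the native mean was above synthetic in 34 of 34 H-strand regions, and without it in 21 of 34. Without ESC 1 the control region was below synthetic on the H strand, at 3.04, 3.17 and 3.15% in ESC 2, brain 1 and liver 1 against 3.76%. The difference of -0.645 points was larger than the spread of these 3 libraries and did not pass (adjusted p = 0.40). The block between ETAS2 and CSB1 was at 2.58% ± 0.102 (SD, n = 3) against 3.45%. The other H-strand regions with at least 10 sites differed from synthetic by -0.491 to 0.453 points, apart from TrnN, TrnI and TrnL2, which were 0.760, 0.979 and 1.26 points above synthetic. TrnH and TrnA, which were higher in native mtDNA at 5 min, were lower in 3 of 3 libraries at 15 min, at 3.70% ± 0.446 against 5.28% and at 4.51% ± 0.213 against 5.29% (adjusted p = 0.36 and 0.57).

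Some L-strand regions turned between the durations. COX1 was at 3.40, 3.28 and 3.35% in ESC 2, brain 1 and liver 1 at 15 min, against 5.61% for synthetic mtDNA, a difference of -2.27 points without ESC 1 (adjusted p = 0.36), after +2.07 points at 5 min. In mt-Rnr2 the corresponding values were 8.74, 8.33 and 10.5% against 12.2%, a difference of -2.97 points after +3.72. ND4L went the other way. It was at 40.1, 37.2, 36.5 and 42.8% in ESC 1, ESC 2, brain 1 and liver 1, against 26.8% for synthetic mtDNA, 12.4 points above with ESC 1, and at 38.8% ± 3.44 (SD, n = 3) without it (adjusted p = 0.93 and 0.36), after -8.01 points at 5 min. Over the 57 ND4L sites covered at both durations the differences were -6.99 and 12.4 points, so the direction turned at the same sites as well. ND2 was below synthetic without ESC 1, at 77.7% ± 0.587 (SD, n = 3) against 83.1% (adjusted p = 0.36).

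By class, the H-strand CG sites at 15 min were at 3.08, 3.11 and 3.14% in ESC 2, brain 1 and liver 1, against 3.14% for synthetic mtDNA, with ESC 1 at 9.76%. Without ESC 1 the native CH mean was 3.49% ± 0.0612 (SD, n = 3) against 3.38%, with 3 of 3 above (exact permutation p = 0.25). The CG minus CH difference was then -0.377 ± 0.0855 points (SD, n = 3), and -0.237 points for synthetic mtDNA, with 0 of 3 native libraries above (exact permutation p = 0.25). At 5 min it had been higher in native mtDNA in 4 of 4. CA sites again had the highest H-strand rate in each library, 4.47 to 4.67% in these 3 libraries and 4.45% in synthetic mtDNA. Without ESC 1, 9 of 16 H-strand contexts had a native mean above synthetic, and the differences ran from -0.185 to 0.369 points. With ESC 1 the largest were at GCA (2.43 points) and ACA (2.38 points) and the smallest at CCC (1.09 points) and CCT (1.40 points). L-strand differences ran with ESC 1 from -1.18 points at GCG and -0.526 points at TCC to 2 points at GCC and 2.17 points at CCG. Without it they ran from -2.57 points at GCG and -1.59 points at TCC to 0.449 points at ACG and 1.57 points at CCG, and 3 of 16 were positive. L-strand CG sites were at 11.2% ± 0.227 (SD, n = 3) without ESC 1 and 11.2% in synthetic mtDNA.

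No single site passed the test at 15 min either. limma called 0 of 4200 sites (0%), with 38 H-strand and 99 L-strand sites at an unadjusted p under 0.05, and relative to the strand median also 0 of 4200 (0%), with 107 and 156. Without ESC 1 it again called 0 sites on either scale, with 113 and 182 sites at an unadjusted p under 0.05, and 114 and 202 relative to the strand median. Fisher's exact test on summed reads called 181 of 1870 H-strand sites, 180 higher in native mtDNA, and 111 of 2330 L-strand sites, 41 higher. The reads of ESC 1 were among the native reads.

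Coverage was compared as the mean of a region over the mean of its strand, so that a library's depth drops out. At 5 min limma called 1 of 70 region and strand combinations (1.43%), TrnF on the H strand. There native libraries were at 0.107, 0.0991, 0.121 and 0.110 of the strand mean and the synthetic library at 0.0394, a log2 difference of 1.47 ± 0.168 (SE; adjusted p = 0.013). It was not called without ESC 1, without liver 1 or on medians, and its direction on means did not hold at 15 min. There TrnF was at 0.0446, 0.0484 and 0.0352 in ESC 2, brain 1 and liver 1, all below the 0.0550 of synthetic mtDNA, whereas ESC 1 was at 0.0999. On medians at 15 min TrnF was higher in native mtDNA, with a log2 difference of 3.87, and TrnL2 on the L strand was lower. Mean coverage of TrnL2 there was only 0.00783 to 0.0170 of the strand mean in native libraries and 0.0331 in the synthetic one. TrnT holds the BglII site, lies near the ends of the molecules, and by design lacks a few bases in the synthetic product. At 5 min it was at 0.625, 0.613, 0.307 and 0.615 in ESC 1, ESC 2, brain 1 and liver 1, against 0.145 for synthetic mtDNA. It was not called in the main test. The control region was above synthetic in 4 of 4 native libraries at both durations, at 1.11 to 1.39 against 0.973 and at 0.965 to 1.46 against 0.807 (adjusted p = 0.46 and 0.65). Without ESC 1 the 15 min values were 0.965 to 1.28 in 3 native libraries (adjusted p = 0.40). TrnA was at 0.603 to 0.702 in native mtDNA and 0.350 in synthetic mtDNA at 5 min (adjusted p = 0.079), so that this gene and TrnF, both called by their rates, were also thinly covered in the synthetic library. The part of coverage in their rates was not tested. At 15 min 0 of 70 were called (0%), with 6 at an unadjusted p under 0.05, and without ESC 1 also 0, with 8. H-strand sites were covered 3.21 ± 0.258 times as deeply as L-strand sites in native and 3.13 times in synthetic libraries at 5 min, and 5.83 ± 0.872 and 6.50 times at 15 min (exact permutation p = 0.8 at each), or 6.11 ± 0.808 without ESC 1 (exact permutation p = 0.75).

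**Figure D5:**
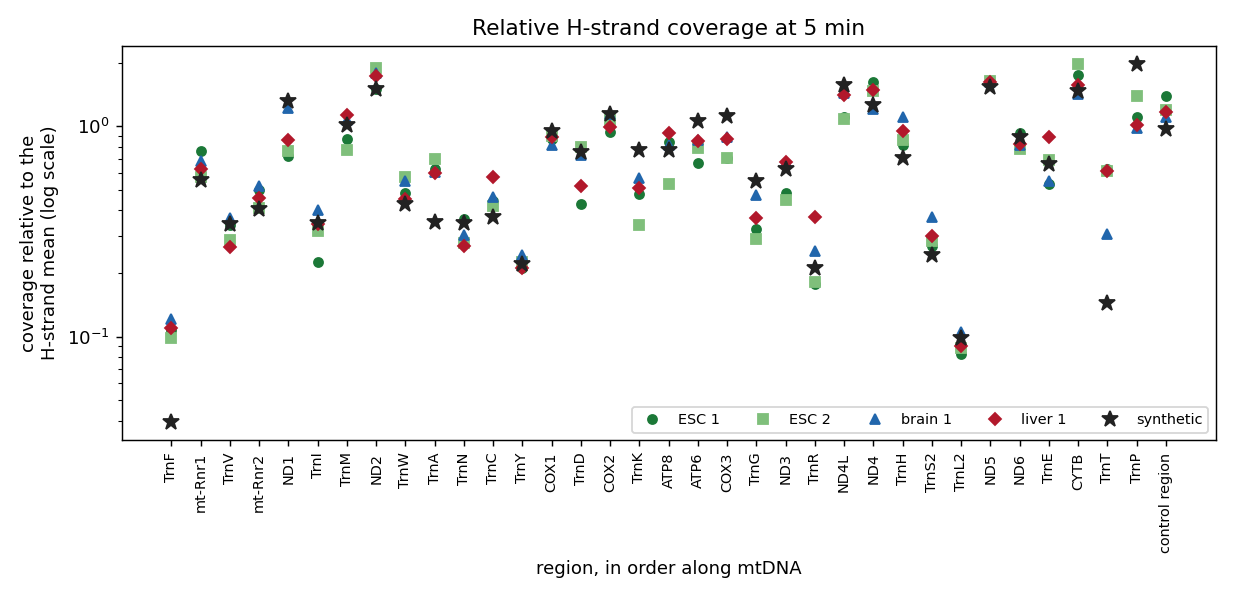
Coverage of each region relative to the mean H-strand coverage of its library at 5 min (log scale), for regions in order along mtDNA; each symbol is 1 library. The star of synthetic mtDNA lies apart from and below the 4 native libraries at TrnF, TrnA and TrnT, and above them at TrnP.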

How the data were processed

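The 10 PBAT libraries (post-bisulfite adapter tagging, single preparations treated for 5 or 15 min) were grouped as native or synthetic from their labels. The authors trimmed reads with TrimGalore and, with Bismark, mapped them to the mouse mitochondrial sequence of mm10. The deposited percent of unconverted reads per cytosine is not corrected for incomplete conversion, and the deposited coverage is a count of reads with no normalization. Unconverted reads were taken as percent times coverage, rounded.

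Means are over sites with coverage of at least 10 in all 5 libraries of a duration. Strand and class means were compared by exchanging the synthetic label among the preparations in an exact permutation test (two-sided, smallest p 0.2, or 0.25 without ESC 1). Sites and regions of at least 5 sites were tested with limma 3.58.1 in R 4.3.3, on natural log odds (offset of 0.5 reads for sites), per strand, 4 native against 1 synthetic library, with Benjamini-Hochberg adjustment over both strands and a threshold of 0.05. The lone synthetic library was assumed to vary like the native ones, so p-values rest on the spread between native preparations. The fits were tested on simulated data. Genes came from the GRCm38.p6 annotation, and a site in overlapping genes counted in each. Relative coverage was tested on the log2 scale. Some cytosines of the reference were not analysed here.

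Named sites were to be those called (up to 3 per strand, direction and duration), all protein, rRNA and control regions, called tRNA genes, the classes CG, CA, CC and CT, and the 2 highest and 2 lowest of 16 contexts per strand. No site was called, so those named were chosen after their values were seen. Members and lists were chosen with earlier results of these data known. Alternatives were other coverage minima, pooled reads, each native library left out, L-strand sites under 10% at 40 min, other scales and Fisher's test.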

Additional observations from a re-analysis of the deposited data

Results flagged for a closer look

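The 4 native libraries were searched for one far from the other 3, without the synthetic library, and chance flags about 1 in 20 such groups. At 15 min ESC 1 stood out in every class of both strands. This library was already set apart for its lower conversion at 15 min, so its flags by class and gene are not separate findings. Its H-strand mean was 10.4%, with 9.76% at CG, 10.5% at CH, 13.003% at CA, 8.54% at CC and 9.80% at CT sites, and its L-strand mean was 38.4%, with 15.9% at CG, 39.9% at CH, 41.7% at CA, 41.2% at CC and 36.5% at CT sites. Its log2 ratio of the H-strand mean at 15 min to that at 5 min was -1.63.

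By gene, ESC 1 was the distant library on the H strand at 15 min with 10.6% in mt-Rnr1, 10.1% in ND1, 10.6% in ND2, 9.71% in COX1, 11.3% in COX2, 10.8% in ATP8, 10.6% in ATP6, 11.2% in COX3, 11.1% in ND3, 10.3% in ND4L, 11.1% in ND4, 10.9% in ND5, 11% in ND6, 10.2% in CYTB, 9.93% in control region. It was also so for the L strand with 8.53% in COX1, 53.9% in ND5, 42.6% in CYTB. The other libraries flagged were ESC 2 in ND2 on the H strand at 5 min (32.7%) and ESC 2 in ND1 on the L strand at 15 min (33.1%).

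In 3 regions of the L strand all 4 native libraries lay below synthetic at 5 min and above it at 15 min, a difference between the durations that was not tested. Native minus synthetic went from -8.01 to 12.4 points in ND4L, from -12.2 to 1.91 points in TrnA and from -0.251 to 1.48 points in ATP8. At the sites covered at both durations, a comparison chosen after seeing the data, ND4L kept the pattern over 57 sites, with -6.99 and 12.4 points. The pattern was lost in ATP8, with 2 of 4 native libraries above at 5 min, and in TrnA, with 2 of 4 above at 15 min.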

How the results depend on the processing

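Among the alternative values, 159 kept their direction and side of the threshold or stayed within the range set for counts, 19 moved and 11 reversed. At 5 min, site calls on the H strand numbered 1 at a coverage minimum of 20, 2 at a minimum of 30, 1 with a trended robust prior and 108 with Fisher's exact test, and on the L strand 96 with Fisher's exact test. Relative to the strand median, the trended robust prior gave 1 call on each strand. At 15 min Fisher's exact test called 181 H-strand and 111 L-strand sites. Region calls at 5 min ranged from 1 (without ESC 2) to 21 (without brain 1), and numbered 1 relative to the strand median and 0 with unmoderated variances. Coverage calls at 5 min ranged from 0 (without ESC 1 or liver 1) to 2 (without brain 1) with a library left out and numbered 0 on medians, and at 15 min medians gave 2 calls, TrnF on the H strand and TrnL2 on the L strand.

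The signs of some L-strand differences turned, and some differences were larger with reads pooled over sites. Native minus synthetic at 5 min became 0.991 points at sites converting by 40 min. Its CG minus CH difference became -0.0428 points at a coverage minimum of 20 and -0.743 points at converting sites, and at 15 min -0.0963 points at converting sites. With reads pooled over sites it was 3.64 points at 5 min and 7.05 points at 15 min, each at the smallest exact permutation p of 0.2. At 15 min the L-strand mean difference was -0.328 points at a coverage minimum of 30 and -6.12 points with reads pooled over sites, and ranged from -0.515 (without ESC 1) to 1.40 with a library left out. The log2 difference in fold decrease ranged from -0.0928 (without ESC 1) to 0.456 on the H strand. For the L strand it ranged from -0.00773 (without ESC 1) to 0.0776, and was -0.0120 at a minimum of 30 and -0.188 on pooled reads. The cause of these changes was not tested.

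No paired analysis was possible because the synthetic group has 1 preparation, so the groups share a single replicate number. Depth limits single L-strand sites most, whose median coverage at 15 min was 46 to 84 reads. A single synthetic library cannot by itself separate native origin from variation between bisulfite reactions. The study spiked each sample with unmethylated lambda DNA before conversion, as an internal control of the reaction. The lambda rates were not analysed here, so the part of reaction variation in the native minus synthetic differences was not tested.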
